A study of Mus musculus with 15 samples.

Results

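The 9 genes described here belong to hepatic glycolysis and gluconeogenesis, the opposing pathways that break glucose down to pyruvate and rebuild it. The set holds Gckr, Pfkl, Pklr, Pgk1, Pfkfb1, Pcx, Pck1, Fbp1 and G6pc. These genes are called control enzymes below for short, although Gckr encodes a regulatory protein and Pgk1 catalyses a reversible step. They were chosen by name, and each was followed through the probe set whose annotated symbol equals the gene symbol. Of the 9 genes, 8 had such a probe set, 1 each, among 22206 tested probe sets, of which 19572 carry exactly 1 symbol. Pfkfb1 is not named in the annotation used here. The values are log2 signals of liver RNA from 15 Clariom S mouse arrays in 5 groups of 3, each array from another C57BL/6 mouse colonised with human gut microbiota. The mice drank 10% fructose with potassium sorbate (19 mg per kg body weight per day), with sodium nitrite (0.36) or with sodium benzoate (4.8), 10% fructose alone, or water. Treatment began at 3 weeks of age and lasted 11 weeks, which the methods give as 14 weeks of age at the end and the sample labels as 11 weeks. The study held 8 mice per group with both sexes, and the labels give neither the sex nor the feeding state of the 3 mice whose livers were hybridised. The liver is a mixture of cells, so fewer cells of a type and less RNA per cell cannot be told apart.

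Hepatocytes take up glucose and pass it down glycolysis after a meal, and make glucose from lactate, alanine and glycerol during fasting. Direction is set at substrate cycles in which a glycolytic enzyme faces a gluconeogenic one, among them phosphofructokinase and fructose-1,6-bisphosphatase, and pyruvate kinase and the pair of pyruvate carboxylase and phosphoenolpyruvate carboxykinase. Insulin, glucagon and the carbohydrate sensor ChREBP act on the transcription of these genes, and fructose enters below phosphofructokinase, as triose phosphates.

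The promoters of 4 of the genes are printed to show the letters known from their regulation beside a gene of the shared reversible steps. Each stretch is the 250 bases before a transcription start in RefSeq (GRCm38.p6), 5′ to 3′ on the gene's strand, with capitals where a searched motif matched on either strand. All 9 genes had an entry, and Pklr had 2 starts, of which the downstream one is shown. The stretches lie at chr3:89136373-89136622 for Pklr, chr11:101367466-101367715 for G6pc, chr2:173152823-173153072 for Pck1 and chrX:106186850-106187099 for Pgk1, each on the + strand.
Pklr: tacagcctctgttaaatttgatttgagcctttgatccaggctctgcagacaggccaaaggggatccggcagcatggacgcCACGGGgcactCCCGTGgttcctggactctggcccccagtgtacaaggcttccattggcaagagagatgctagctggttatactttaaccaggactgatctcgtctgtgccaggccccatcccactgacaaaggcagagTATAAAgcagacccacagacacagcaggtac
G6pc: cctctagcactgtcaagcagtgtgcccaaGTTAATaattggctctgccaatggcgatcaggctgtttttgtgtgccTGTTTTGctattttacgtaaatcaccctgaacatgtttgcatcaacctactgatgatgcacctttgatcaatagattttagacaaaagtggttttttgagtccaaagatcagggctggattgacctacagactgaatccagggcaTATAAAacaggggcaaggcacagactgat
Pck1: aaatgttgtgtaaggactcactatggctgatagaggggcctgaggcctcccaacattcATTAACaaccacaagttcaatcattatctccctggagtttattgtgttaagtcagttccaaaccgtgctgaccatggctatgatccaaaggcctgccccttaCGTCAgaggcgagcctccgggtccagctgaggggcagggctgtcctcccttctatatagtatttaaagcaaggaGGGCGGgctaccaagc
Pgk1: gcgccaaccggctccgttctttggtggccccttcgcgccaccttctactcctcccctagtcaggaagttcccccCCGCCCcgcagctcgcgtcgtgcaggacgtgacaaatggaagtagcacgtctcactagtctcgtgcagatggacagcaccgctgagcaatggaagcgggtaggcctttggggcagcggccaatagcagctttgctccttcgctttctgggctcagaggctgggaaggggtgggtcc

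Pklr was the only gene of 32851 promoter entries in which CACGGG and its reverse complement faced each other 5 bases apart (0.00304% of entries), from position -170 to -154 before the start. CACGGG alone stood in 8.46% of the entries. This arrangement is known as the carbohydrate response element of the rat pyruvate kinase gene, to which ChREBP and its partner Mlx bind. The Pklr and G6pc stretches held TATAAA, the TATA box, from positions -31 and -29 (12.4% of entries). G6pc also held TGTTTTG at -174 (5.56% of entries), the core of insulin response sequences bound by forkhead factors, and GTTAAT, part of the HNF1 motif, at -221 (6.43%). Pck1 held GTTAAT on the opposite strand at -192, TGACG on the opposite strand at -90 (17.8%) in the place of its cAMP response element, and GGGCGG, a GC box, at -16 (32.7%). In Pgk1 the 1 match was a GC box on the opposite strand at -176. The other motifs searched on both strands were CACGTG (6.02% of entries), TGTTTAC (3.17%), TGACGTCA (1.55%) and CAAAGTCCA (0.384%). TGACG is contained in TGACGTCA. The searches for CACGGG, for the TGTTTTG core and for TGACG were added after the promoters had been read. A match is a run of letters and not a measured binding site.

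The labelled tissue was borne out by 10 hepatocyte markers, whose mean signal lay between 17.34 and 18.19 on all 15 arrays. This mean was also lower in water, at 17.34 to 17.86, against 17.91 to 18.19 on the 12 fructose-drinking arrays. Several array-wide measures separated the water arrays from the rest. The mean of 4 hybridization controls was 11.68 to 12.40 on the 12 fructose-drinking arrays, against 12.64 to 13.21 on the water arrays, and the median of the negative controls was 6.03 to 6.58 against 5.58 to 5.63. Of 23 very long, broadly expressed transcripts, 21 were higher and 0 lower in fructose than in water livers (median log2 fold change 1.99), and of 43 cytosolic ribosomal protein genes 0 were higher and 37 lower (median -1.12). Of 9 Kupffer cell and macrophage markers 5 were lower and 0 higher in fructose. Of 10 sinusoidal endothelial markers 4 were higher and 1 lower. Of all probe sets, 11.8% were higher and 12.7% lower. Against water, 1 Kupffer marker was higher and 2 lower with benzoate, 1 and 4 with nitrite, and 1 and 2 with sorbate. Of all probe sets, 15.6%, 16% and 16.7% were higher and 18.7%, 18.8% and 19.8% lower there. In sorbate against fructose 3 Kupffer markers were higher and 0 lower, where 0.41% and 0.225% of all probe sets were. The mean of 3 Y-linked genes was 3.39 to 4.17 on the sorbate arrays and 3.51 and 3.57 on benzoate arrays 3 and 2, against 9.37 to 10.00 on benzoate array 1 and on all nitrite, fructose and water arrays. Among the sorbate, fructose and water arrays, sorbate and the absence of Y-linked signal therefore cannot be told apart. Fits with the Y-linked mean as a covariate rest mainly on benzoate, the only group with and without this signal. The part of these measures in the results below was not tested beyond the covariate fits given beside them.

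**Figure D1:**
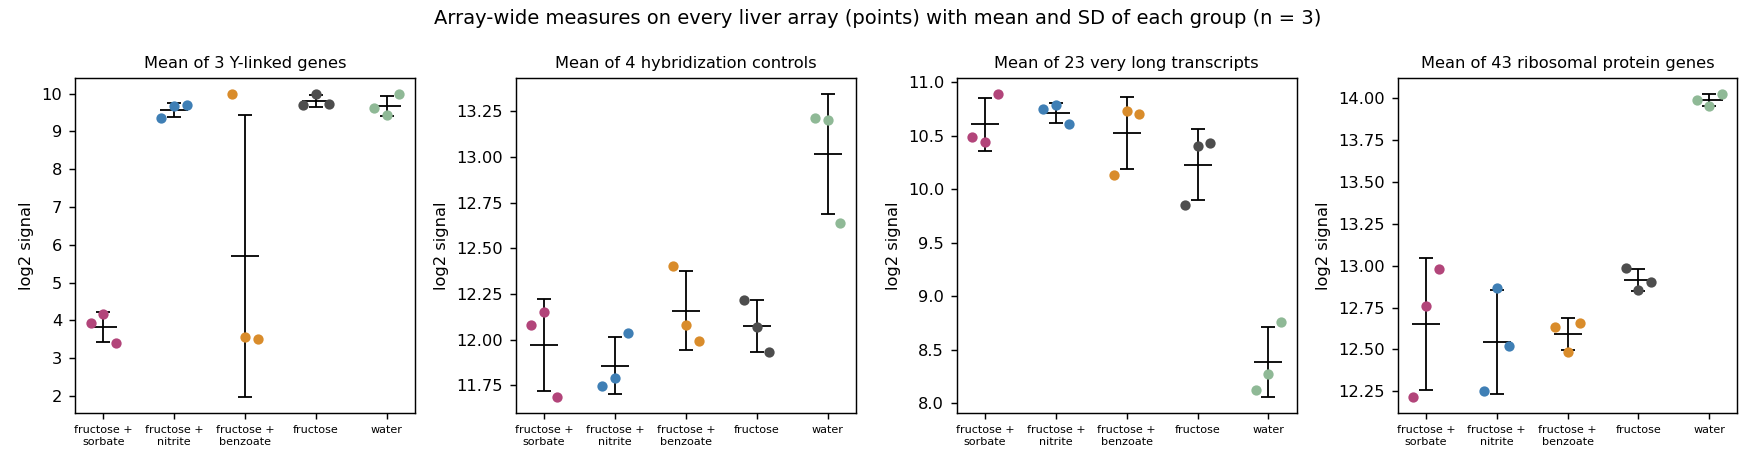
Log2 signal (y axes) of 4 array-wide measures by treatment group (x axes): points are single arrays, bars the mean and SD of 3 arrays. The Y-linked mean is low on all sorbate arrays and on 2 benzoate arrays, and the water arrays are apart from the others in the hybridization controls, the very long transcripts and the ribosomal protein genes.

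Most of these enzymes were higher in fructose livers, on both sides of the pathway. Compared with water, 6 of the 8 measured genes were higher in fructose livers at an adjusted p under 0.05 (limma, Benjamini-Hochberg over all 22206 probe sets), 3 that act in or on glycolysis (Gckr, Pfkl, Pklr) and 3 of gluconeogenesis (Pcx, Fbp1, G6pc). No gene was lower, and Pck1 and Pgk1 did not pass. Over all probe sets, 11.8% were higher by the same rule. With benzoate or nitrite added, 7 of 8 were higher than in water, Pck1 being the added gene, where 15.6% and 16% of all probe sets were higher. With sorbate added, the count was 6 of 8, where 16.7% were higher. With a fold change over 2 as well, 5 genes remained in fructose (8.52% of all probe sets), 6 with benzoate (11.6%), 6 with nitrite (11.6%) and 5 with sorbate (12.1%). All 4 comparisons share the 3 water arrays. The median log2 fold change of the 8 genes was 1.34 in fructose, and in the groups with an added preservative 2.07 (benzoate), 1.79 (nitrite) and 1.91 (sorbate), whereas the median of all probe sets lay between -0.20 and -0.12.

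The fructose and water arrays did not overlap for 6 of the 8 genes, which was so for 36.6% of all probe sets in either direction. Against water, the numbers were 7 with benzoate (40.5%), 7 with nitrite (43.4%) and 5 with sorbate (42.4%). When the hybridization controls entered the fit as a covariate, none of the 8 genes passed in any of the 4 comparisons, and at most 1 of all 22206 probe sets did. Without water arrays 1 and 2, the arrays with the highest hybridization controls, the counts were 2 in fructose (Fbp1 and Pcx, where 2.39% of all probe sets were higher) and 4 in each preservative group (Gckr, Pklr, Fbp1 and Pcx, where 6.1%, 6.69% and 7.02% were higher with benzoate, nitrite and sorbate).

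**Figure D2:**
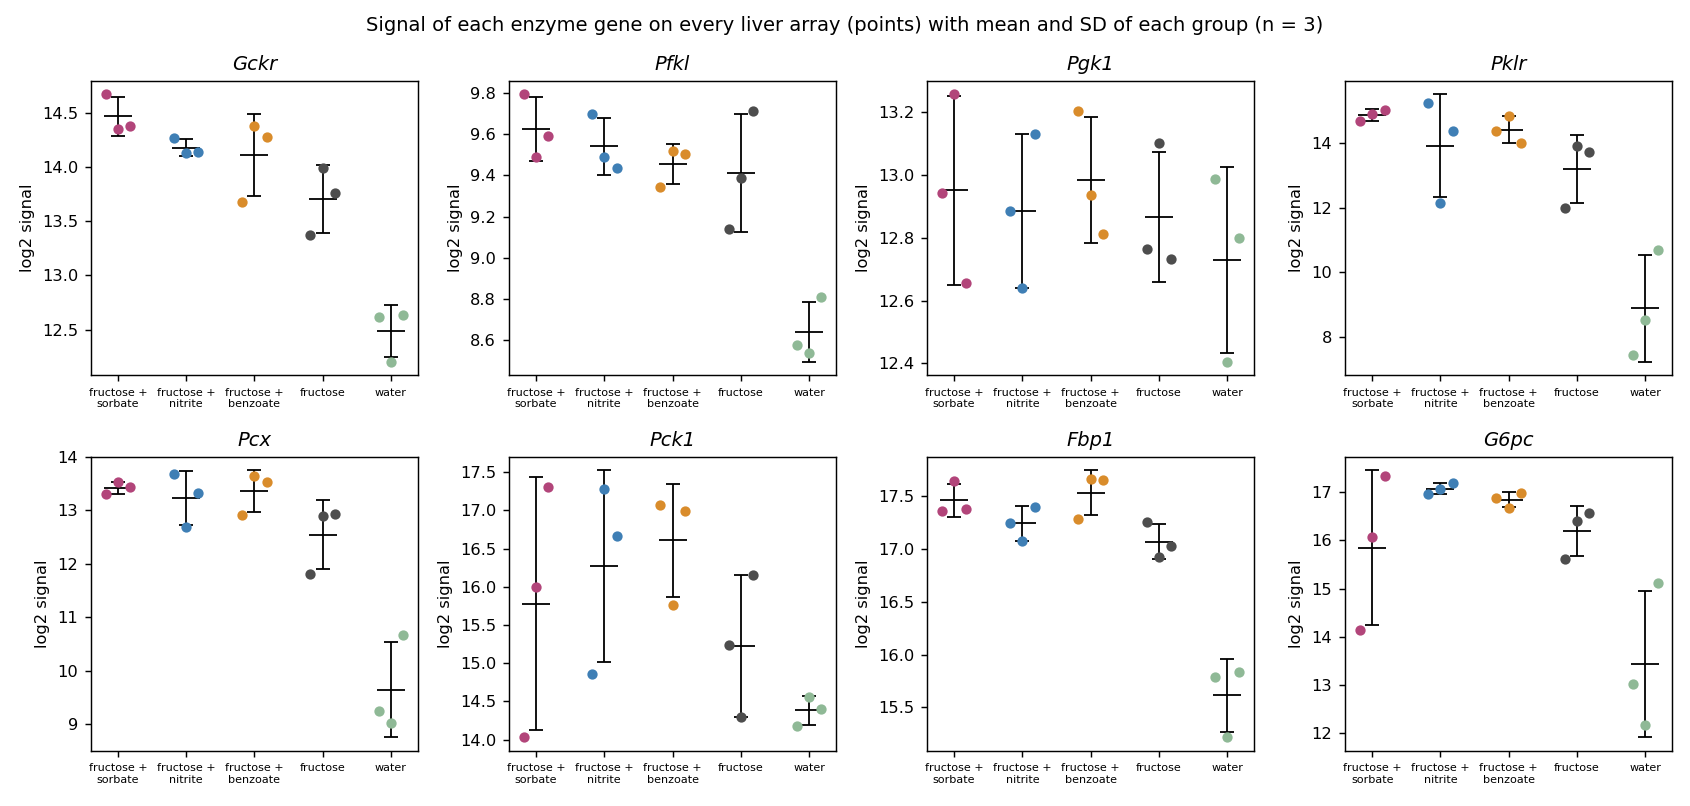
Log2 signal (y axes, with a scale of its own for each gene) of the 8 enzyme genes by treatment group (x axes): points are single arrays, long bars the mean and short bars the SD of 3 arrays. The water arrays lie below every other array for Gckr, Pfkl, Pklr, Pcx and Fbp1, while the groups overlap for Pgk1.

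Gckr encodes a regulatory protein of the hepatocyte nucleus that answers to fructose phosphates and controls the entry of glucose into glycolysis (chr5:31297266-31327302, GRCm38.p6). Its signals were 14.67, 14.35 and 14.38 with sorbate, 14.26, 14.13 and 14.14 with nitrite, 13.68, 14.38 and 14.27 with benzoate, 13.37, 13.99 and 13.76 in fructose, and 12.62, 12.21 and 12.64 in water. Every fructose-drinking array was above every water array. The rise was 1.22 ± 0.24 (log2 fold change ± SE, 2.33-fold, adjusted p = 0.00153) in fructose against water, 1.62 with benzoate, 1.69 with nitrite and 1.98 with sorbate (3.94-fold, adjusted p = 1.56e-05).

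Pfkl is the liver subunit of phosphofructokinase, the committed step of glycolysis (chr10:77986947-78009807). It had a small and even rise. The signals were 9.79, 9.49 and 9.59 with sorbate, 9.70, 9.49 and 9.44 with nitrite, 9.35, 9.52 and 9.50 with benzoate, 9.14, 9.39 and 9.71 in fructose, and 8.58, 8.54 and 8.81 in water, again without overlap between the fructose-drinking and water arrays. Pfkl was 1.71-fold higher in fructose than in water (0.77 ± 0.21, adjusted p = 0.0138) and 1.76-fold, 1.87-fold and 1.98-fold higher with benzoate, nitrite and sorbate. The call in fructose was lost without fructose array 3 (0.62, adjusted p = 0.0844) and when only the fructose and water arrays were fitted (adjusted p = 0.0704). With the Y-linked mean as a covariate the calls with benzoate (adjusted p = 0.111) and sorbate (0.18) were lost.

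Pgk1, phosphoglycerate kinase, catalyses a reversible step that both directions share (chrX:106187100-106203699). It was the gene whose level stayed closest to water. Its signals were 12.94, 13.26 and 12.66 with sorbate, 12.89, 12.64 and 13.13 with nitrite, 13.21, 12.94 and 12.81 with benzoate, 12.77, 13.10 and 12.73 in fructose, and 12.99, 12.41 and 12.80 in water. All groups overlapped. The log2 fold change against water was 0.14 in fructose (95% confidence interval -0.37 to 0.64, adjusted p = 0.72) and at most 0.25, with benzoate (-0.25 to 0.76, adjusted p = 0.436). The intervals leave room for changes of up to about 0.76 on the log2 scale.

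Pklr, the liver form of pyruvate kinase and the last step of glycolysis, had the largest rise of the 8 genes in every comparison with water (chr3:89136122-89146815). The signals were 14.69, 14.92 and 15.04 with sorbate, 15.24, 12.17 and 14.39 with nitrite, 14.39, 14.86 and 14.02 with benzoate, 12.01, 13.92 and 13.72 in fructose, and 7.45, 8.51 and 10.69 in water. Water arrays were low and uneven, and nitrite array 2 and fructose array 1 were the lowest of the fructose-drinking arrays, although above all of water. Pklr was 20.1-fold higher in fructose than in water (4.33 ± 0.72, adjusted p = 0.000407), 46.5-fold with benzoate (adjusted p = 2.83e-05), 33.1-fold with nitrite (4.89e-05) and 63.8-fold with sorbate (1.43e-05). Its log2 fold change in fructose stood at the 99.95th percentile of all probe sets. Water arrays 1 and 3 moved these values most. Without water array 1 the log2 fold changes were 3.62 for fructose, 4.82 for benzoate, 4.33 for nitrite and 5.28 for sorbate, and without water array 3 they were 5.23, 6.44, 5.95 and 6.90 in the same order. Pklr carries the facing CACGGG pair printed above. Pkm, the pyruvate kinase of other tissues, had a log2 fold change of -0.12 ± 0.25 in fructose (adjusted p = 0.761).

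Pcx, pyruvate carboxylase, makes oxaloacetate from pyruvate in mitochondria and opens gluconeogenesis (chr19:4510472-4621752). The signals were 13.31, 13.54 and 13.43 with sorbate, 13.68, 12.68 and 13.32 with nitrite, 12.92, 13.64 and 13.53 with benzoate, 11.80, 12.90 and 12.93 in fructose, and 9.25, 9.02 and 10.67 in water. All 12 fructose-drinking arrays were above the 3 water arrays. Pcx was 7.46-fold higher in fructose (2.90 ± 0.39, adjusted p = 1e-04) and 12.0-fold to 13.8-fold higher in the preservative groups (highest adjusted p = 9.27e-06). It carried the smallest adjusted p of the 8 genes in each comparison with water.

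Pck1, the cytosolic phosphoenolpyruvate carboxykinase, follows Pcx and answers to glucagon and insulin (chr2:173153073-173159274). It was the least settled of the gluconeogenic genes. Its signals were 14.03, 15.99 and 17.31 with sorbate, 14.86, 17.28 and 16.66 with nitrite, 17.07, 15.76 and 17.00 with benzoate, 15.24, 14.29 and 16.15 in fructose, and 14.18, 14.56 and 14.41 in water. Fructose array 2 and sorbate array 1 lay within or below the water values, whereas the benzoate and nitrite arrays were all above them. The log2 fold change was 0.85 ± 0.68 in fructose (95% confidence interval -0.58 to 2.28, adjusted p = 0.386), 2.23 with benzoate (4.68-fold, adjusted p = 0.0174), 1.89 with nitrite (3.70-fold, adjusted p = 0.0389) and 1.4 with sorbate (adjusted p = 0.116). The call with benzoate was lost without water array 1, benzoate array 1 or benzoate array 3 (adjusted p = 0.0513 to 0.0634), and the call with nitrite without any 1 water array, nitrite array 2 or nitrite array 3 (adjusted p = 0.0652 to 0.176). Without sorbate array 1 the sorbate value passed (2.27, adjusted p = 0.0115).

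Fbp1, fructose-1,6-bisphosphatase, opposes phosphofructokinase (chr13:62864753-62888298). The signals were 17.36, 17.64 and 17.37 with sorbate, 17.25, 17.08 and 17.40 with nitrite, 17.29, 17.66 and 17.65 with benzoate, 17.25, 16.93 and 17.03 in fructose, and 15.79, 15.22 and 15.84 in water. The groups were tight and the water arrays stood below all others. Fbp1 was 2.74-fold higher in fructose (1.45 ± 0.23, adjusted p = 0.000267), 3.78-fold with benzoate, 3.09-fold with nitrite and 3.59-fold with sorbate. Of the opposing enzymes, Fbp1 and Pfkl had log2 fold changes of 1.45 and 0.77 in fructose, and the difference between the 2 genes was not tested.

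G6pc, the catalytic subunit of glucose-6-phosphatase, releases free glucose as the last step of gluconeogenesis and of glycogen breakdown (chr11:101367716-101377903). The signals were 14.15, 16.06 and 17.34 with sorbate, 16.95, 17.07 and 17.18 with nitrite, 16.88, 16.67 and 16.98 with benzoate, 15.61, 16.41 and 16.57 in fructose, and 13.02, 12.17 and 15.11 in water. Nitrite and benzoate arrays were high and close together, sorbate array 1 lay below water array 3, and water array 3 was far above the other 2 water arrays. G6pc was 6.77-fold higher in fructose (2.76 ± 0.65, adjusted p = 0.00488), 10.6-fold with benzoate, 12.4-fold with nitrite and 5.33-fold with sorbate (adjusted p = 0.00771). Without water array 2 the log2 fold change was 2.13 in fructose, 2.77 with benzoate and 3.00 with nitrite, and without water array 3 it was 3.6, 4.25 and 4.47. For sorbate it lay between 1.67 without sorbate array 3 and 3.26 without sorbate array 1. The sorbate call was lost without water array 2 (adjusted p = 0.0512), without sorbate array 3 (0.0588) or with the Y-linked mean as a covariate (0.186). Under the hybridization control covariate the sign turned in fructose (-0.16, adjusted p = 0.981) and with sorbate (-0.82, adjusted p = 0.833).

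**Figure D3:**
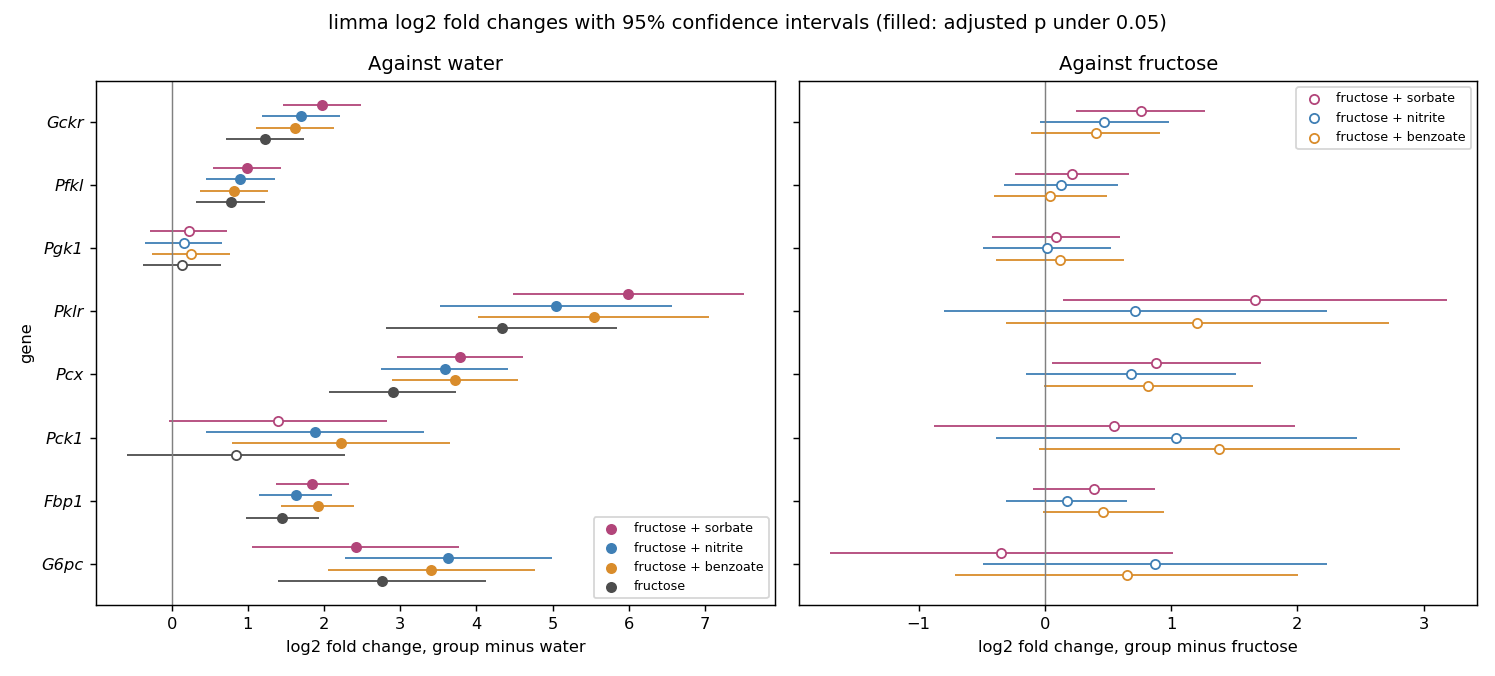
Log2 fold changes (x axes) of the 8 enzyme genes (y axis) against water (left) and of the preservative groups against fructose (right), with 95% confidence intervals from limma: filled points have an adjusted p under 0.05. Against water only Pgk1, and Pck1 in fructose and with sorbate, are open, and against fructose all points are open.

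The preservatives added to fructose gave no called change in these enzymes. Against fructose, 0 of 8 genes were higher or lower with benzoate, nitrite or sorbate (limma, adjusted p under 0.05), where 0.0135%, 0% and 0.41% of all probe sets were higher. At an unadjusted p under 0.05 the counts were 0, 0 and 3, where 4.75%, 2.76% and 7.34% of all probe sets were higher, and with a fold change over 2 as well 0, 0 and 1, where 0.914%, 0.347% and 1.99% of all probe sets were higher. The 3 comparisons share the fructose arrays.

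The 3 genes with sorbate were Gckr, Pklr and Pcx. Gckr was at 0.76 (95% confidence interval 0.25 to 1.27, limma p before adjustment 0.00606, adjusted p = 0.166). Pklr was at 1.66 (0.15 to 3.18, 0.0335 before adjustment, adjusted p = 0.324) and Pcx at 0.88 (0.05 to 1.71, 0.0383 before adjustment, adjusted p = 0.339). Across 17 alternative settings the lowest values were 0.21 for Gckr, 1.06 for Pklr and 0.38 for Pcx. Every fructose array had Y-linked signal and no sorbate array did, so sorbate and this signal cannot be told apart here. Benzoate array 1, with this signal, was at 13.68 for Gckr, 14.39 for Pklr and 12.92 for Pcx. Benzoate arrays 2 and 3, without it, were at 14.38 and 14.27, 14.86 and 14.02, and 13.64 and 13.53. The sorbate and fructose arrays did not overlap for 4 of the 8 genes, Gckr, Pklr, Pcx and Fbp1, and for 23.1% of all probe sets in either direction. The numbers were 3 with benzoate (17.3%) and 2 with nitrite (16.2%). G6pc was the exception in sign with sorbate, at -0.35 (-1.71 to 1.02, adjusted p = 0.873), and it stood at 0.50 without sorbate array 1. With benzoate the widest difference was Pck1 at 1.38 (-0.05 to 2.81, adjusted p = 0.554), followed by Pklr at 1.21 (-0.31 to 2.73) and Pcx at 0.82 (-0.01 to 1.65). With nitrite it was Pck1 at 1.04 (-0.39 to 2.47, adjusted p = 0.926), followed by G6pc at 0.87 (-0.49 to 2.23) and Pklr at 0.72 (-0.80 to 2.23). For Pfkl and Pgk1 the intervals reached 0.66 at most, so that doublings were outside them. For Pklr, Pcx, Pck1 and G6pc the intervals with each preservative held differences of more than 1 on the log2 scale.

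Within a gene, the group means could be put in order, although most neighbours lay close together. Gckr averaged 14.46 with sorbate, 14.18 with nitrite, 14.11 with benzoate, 13.71 in fructose and 12.49 in water (SD 0.075 to 0.38, n = 3 each), and nitrite and benzoate differed by less than the larger of their SDs. Pklr averaged 14.88 with sorbate, 14.43 with benzoate, 13.93 with nitrite, 13.22 in fructose and 8.89 in water (SD 0.18 to 1.65). Pcx averaged 13.43 with sorbate, 13.36 with benzoate, 13.23 with nitrite, 12.54 in fructose and 9.64 in water (SD 0.11 to 0.89). In all 8 genes the lowest mean was that of water. For Pklr, sorbate and benzoate differed by slightly more than the larger of their SDs, benzoate and nitrite, and nitrite and fructose, by less. For Pcx, the 3 preservative groups differed by less than their larger SDs, and nitrite and fructose by slightly more.

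The 8 genes fell into a steady and a variable set within groups. The pooled within-group SD was 0.18 for Pfkl, 0.22 for Fbp1, 0.25 for Pgk1 and 0.26 for Gckr, at the 3.27th to 19.5th percentile of all probe sets, 0.57 for Pcx at the 93.8th, and 1.02 for G6pc, 1.07 for Pck1 and 1.14 for Pklr, all above the 99th. All 8 signals were above the negative control median on every array, with the smallest gap (1.87) for Pklr in water.

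Some pairs of the enzymes varied together. Over the 12 fructose-drinking arrays, 28 pairs of the 8 genes were correlated, and 3 pairs passed an adjusted p of 0.05 by Pearson's r and 1 by Spearman's rho (100000 permutations, two-sided). Pklr and Pcx had r = 0.879 (permutation p = 0.00013, adjusted p = 0.00364) and rho = 0.832 (permutation p = 0.00146, adjusted p = 0.0409). Without the 2 arrays farthest from the median of Pklr r was 0.727, and it was 0.848 on deviations from the group means and 0.883 over the 7 arrays with Y-linked signal. G6pc and Pck1 had r = 0.718 (permutation p = 0.00441, adjusted p = 0.0412) and rho = 0.769 (permutation p = 0.00484, adjusted p = 0.0678), with r = 0.567 without the 2 farthest arrays and 0.532 over the 7 arrays with Y-linked signal. The third pair was Gckr and Pcx (r = 0.815, permutation p = 0.00142, adjusted p = 0.0199; rho = 0.699, permutation p = 0.0141, adjusted p = 0.115), which came to r = 0.595 without the 2 farthest arrays and 0.819 over the 7. Other pairs moved with the choice of arrays. G6pc and Pcx had r = 0.223 over the 12 arrays and 0.801 over the 7, and Pklr and G6pc 0.071 and 0.530. Differences between correlations were not tested. Fructose array 1, lowest in both Pklr and Pcx, also had the lowest mean of the very long transcripts among these arrays (9.85, against 10.13 to 10.90 on the other 11), and the part of that measure was not tested. Sorbate array 1 was lowest in both G6pc and Pck1.

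**Figure D4:**
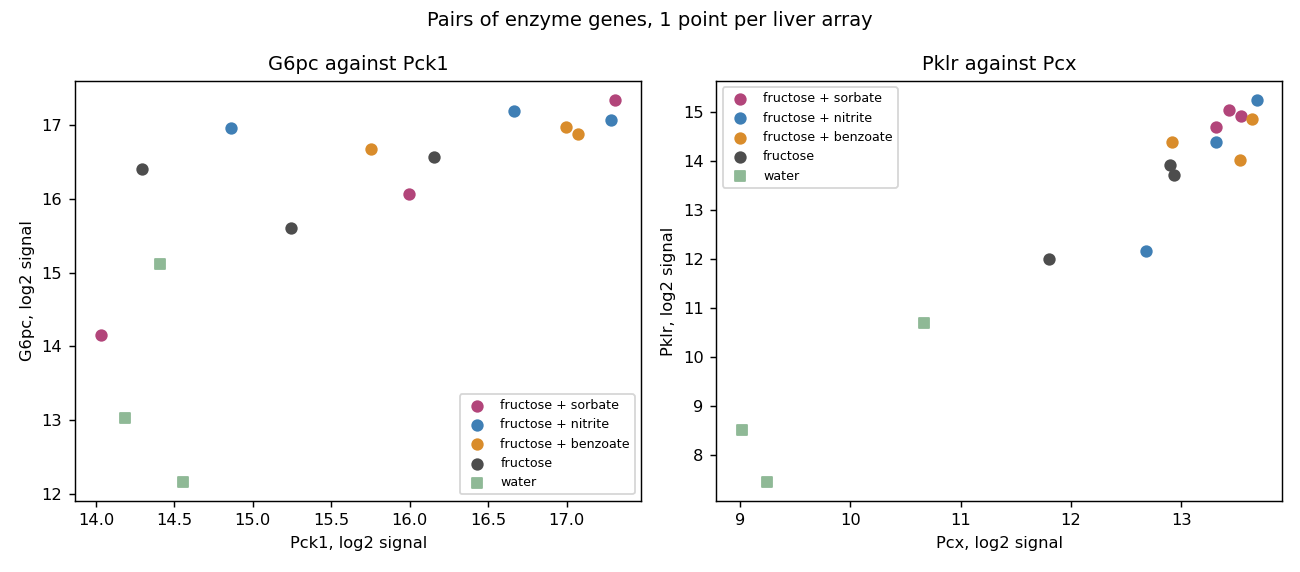
Log2 signal of G6pc against Pck1 (left) and of Pklr against Pcx (right), 1 point per liver array, circles for the 12 fructose-drinking arrays and squares for water. Sorbate array 1 sits near the water arrays in the left plot, and in the right plot fructose array 1 and nitrite array 2 are the circles nearest to water.

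The other enzymes of the pathways moved only in part. In fructose against water, 2 of 6 named genes among 10 other glycolytic enzymes were higher and 0 lower (list median -0.08): Gapdh, glyceraldehyde-3-phosphate dehydrogenase (1.29 ± 0.27, adjusted p = 0.00199), and Ldha, lactate dehydrogenase (1.5 ± 0.26, adjusted p = 0.000527). Of 14 named genes among 15 other gluconeogenic and glucose export genes 4 were higher and 0 lower (median 0.36), led by the glucose transporter Slc2a2 (2.74 ± 0.56, adjusted p = 0.00177) and the mitochondrial aspartate aminotransferase Got2 (2.09 ± 0.33, adjusted p = 0.000297). None of 3 named fructose 2,6-bisphosphate enzymes passed. Among 13 isoenzymes of other tissues 3 were higher and 1 lower, with Aldoa at 1.01 and Hk1 at 0.96 above water and Hk2, the hexokinase of muscle, fallen by 0.87 on the log2 scale. The mean of Hk2 in fructose, 6.03, was below the mean of the negative control medians there, 6.44. Over all probe sets 11.8% were higher and 12.7% lower.

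Genes of pyruvate handling passed about as often as all probe sets in fructose against water. Of 12 named genes of pyruvate entry and pyruvate dehydrogenase, 2 were higher and 1 lower in fructose, where 11.8% and 12.7% of all probe sets were, with Dlat, the acetyltransferase subunit, at 1.91 (adjusted p = 0.00369), the inhibitory kinase Pdk1 at 1.27 (adjusted p = 0.0166), and the pyruvate carrier gene Mpc1 fallen by 0.87 (adjusted p = 0.0165). Against water, 6 of these 12 genes were higher and 1 lower with benzoate, 5 and 2 with nitrite, and 6 and 0 with sorbate. Of all probe sets, 15.6%, 16% and 16.7% were higher and 18.7%, 18.8% and 19.8% lower there. Pdk4, a kinase that closes pyruvate dehydrogenase in fasting, was at 1.55 ± 0.63 in fructose (adjusted p = 0.0826). It was at 2.30 with benzoate (0.00958), 1.45 with nitrite (0.0852) and 2.54 with sorbate (0.0047). Its signals on water array 3 (5.53) and fructose array 1 (5.96) were under the negative control medians of these arrays (5.62 and 6.33).

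Of the enzymes that bring fructose into these pathways, both that passed were higher. Khk, ketohexokinase, which starts fructolysis, rose by 1.37 ± 0.31 (2.59-fold, adjusted p = 0.00344) and Tkfc, triokinase, by 3.04 ± 0.46 (8.22-fold, adjusted p = 0.000224), 2 of the 3 named genes of a list of 4. By the same rule 11.8% of all probe sets were higher in fructose.

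Among 22 named transcription factors and cofactors of glucose metabolism 7 were higher and 2 lower in fructose. The shares over all probe sets were 11.8% and 12.7%. Mlxipl, which encodes ChREBP, was 6.81-fold higher (2.77 ± 0.44, adjusted p = 0.000275), while its partner Mlx fell by 1.48 on the log2 scale (adjusted p = 0.000258). Mlxipl averaged 14.10 ± 0.48 with sorbate, 13.90 ± 0.36 with nitrite, 13.69 ± 0.87 with benzoate, 13.12 ± 0.89 in fructose and 10.35 ± 0.45 in water (SD, n = 3). Foxo1, a forkhead factor of gluconeogenic genes, was at 1.43 ± 0.35 (adjusted p = 0.00676), and Nr1h3, the oxysterol receptor LXR alpha, fell by 1.87 (adjusted p = 0.000281). Hnf4a, a factor that sets hepatocyte identity, was at 0.87 (adjusted p = 0.0349). Ppargc1a, the coactivator PGC-1 alpha, was at 1.01 in fructose (adjusted p = 0.073) and passed in the other 3 groups, at 2.09 with benzoate (0.000688), 2.22 with nitrite (0.000384) and 2.00 with sorbate (0.000903). Set directly against fructose, Ppargc1a did not pass, at 1.08 with benzoate (adjusted p = 0.441), 1.20 with nitrite (0.903) and 0.99 with sorbate (0.286).

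Most genes of hormone receptors and insulin signalling were higher. Of the 10 in the list, 6 were higher and 1 lower in fructose, 8 and 0 with benzoate, 7 and 1 with nitrite and 8 and 0 with sorbate. Of all probe sets, 11.8%, 15.6%, 16% and 16.7% were higher and 12.7%, 18.7%, 18.8% and 19.8% lower in these comparisons. Insr, the insulin receptor, was 13.4-fold higher in fructose (3.74 ± 0.41, adjusted p = 4.01e-05), Pik3r1, a regulatory subunit of its lipid kinase, was at 2.80 (adjusted p = 0.000375), and the kinase gene Akt2 fell by 1.33 (adjusted p = 0.000592). Gcgr, the glucagon receptor, was at -0.18 ± 0.23 (adjusted p = 0.609). In sorbate against fructose, 0.41% of all probe sets were higher. There, 1 gene of this list passed, Akt1 at 1.17 (adjusted p = 0.0167). From the gluconeogenic list 1 passed, Got1, the cytosolic aspartate aminotransferase, at 1.66 (adjusted p = 0.028). Neither passed with the Y-linked mean as a covariate (adjusted p = 0.584 for Akt1 and 0.625 for Got1). When each of the 6 arrays was left out in turn, Akt1 passed in 1 of 6 fits (adjusted p = 0.0355 to 0.114) and Got1 in 0 of 6 (0.0563 to 0.156).

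**Figure D5:**
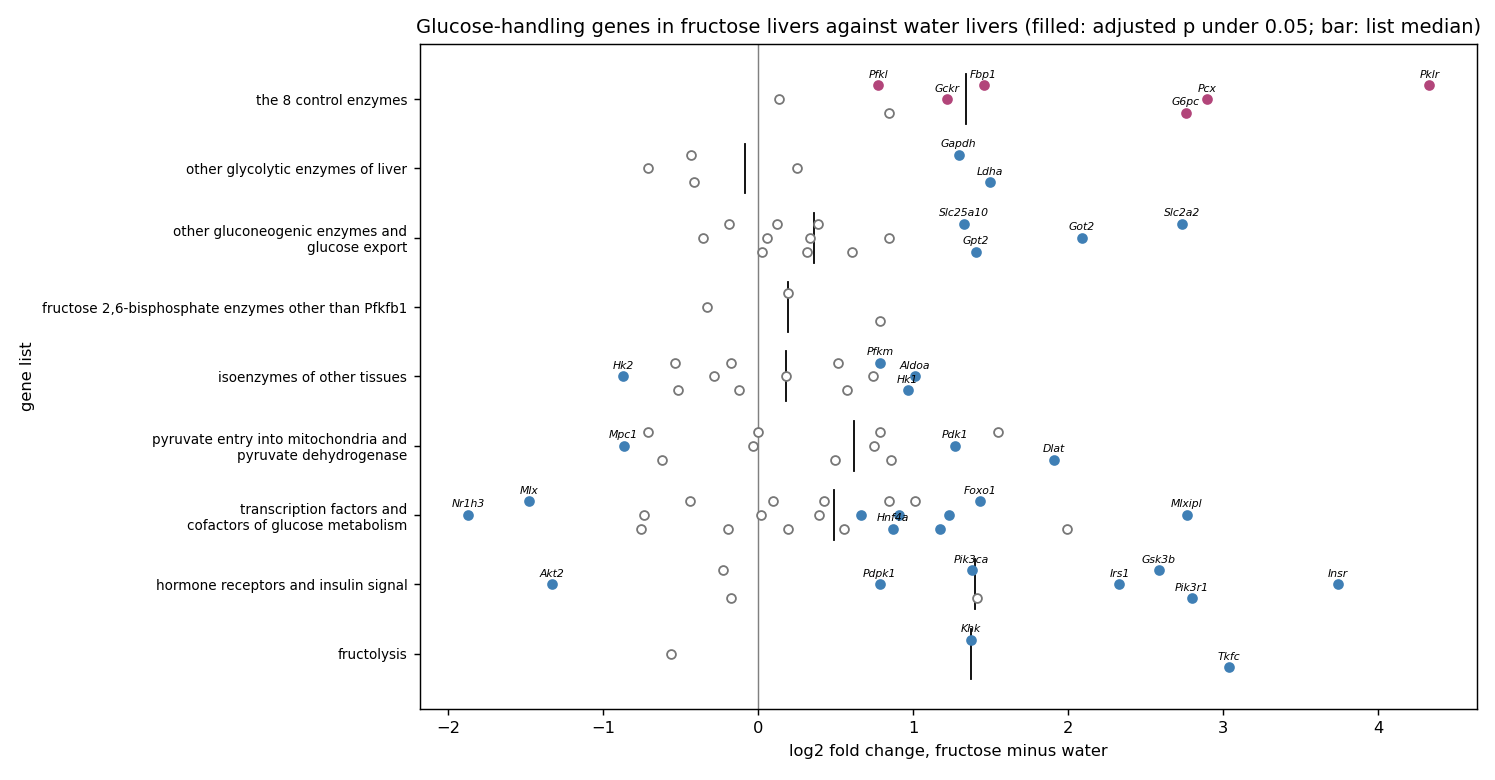
Log2 fold changes of fructose against water (x axis) for the 8 control enzymes and 8 lists of related genes (y axis), 1 point per gene, filled at an adjusted p under 0.05, with a bar at each list median. The control enzymes, the hormone list and the fructolysis list have medians above 1, and the other glycolytic enzymes have a median of -0.08.

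The genes whose signals over the 15 arrays were most like those of each enzyme were, for Pklr, Pygl, the liver glycogen phosphorylase (Pearson r = 0.980), Pcyox1 and Vps4b. For Pcx they were Col18a1 (0.993), Dnm2 and Fn1, for Gckr Notch2 (0.982), BC005537 and Mylk, for Pfkl Anapc2 (0.971), Prpf8 and Myh9, and for Fbp1 Hivep2 (0.970), Ehmt2 and Psap. G6pc was most like Thrb, a thyroid hormone receptor gene (0.955), Hykk and Tsc22d2. The closest patterns were weaker for Pck1, with Sntb2 (0.868), Brap and Elf2, and for Pgk1, with Nipsnap1 (0.859), Tex261 and Olfr920. These correlations describe 15 shared arrays, 3 of them from water, and are given with no test.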

How the data were processed

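The deposited table holds log2 signals per probe set, which the authors made from the scans by SST-RMA according to the methods (a rescaling of the signals followed by background correction, normalization and summary over probes). The Transcriptome Analysis Console and the Affymetrix Expression Console 1.4 are both in the submitters' processing notes, with RMA as the algorithm. No scanner files were used here, and the labels give no batch. Groups came from the sample labels, and the 3 arrays of a group are separate mice. Of 28846 entries, 6640 control probes were left out and 22206 probe sets were tested without further scaling or filter.

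limma 3.58.1 in R 4.3.3 (with the data.table package, 1.17.8) fitted 1 mean per group to all 15 arrays, with Benjamini-Hochberg adjustment over all tested probe sets. A gene was called at an adjusted p under 0.05, and the fold change over 2 of the methods is given beside it. The fit was tested on simulated data. Correlations used permutation tests in Python 3.11.15 (numpy 2.4.6, scipy 1.17.1). Precision is limited by the number of arrays, which have no sequencing depth. The enzymes, lists and rules were chosen with earlier results of these data known. Named beside the enzymes are the 2 largest rises and 2 largest falls among called genes of each list in fructose against water, 10 further genes of glucose metabolism, and for each enzyme the 3 genes of most similar signal. Akt1 and Got1 were named after their values were seen. Alternative settings were arrays centred on the median, quantile normalization, leaving out probe sets under the 30th percentile, restricting the fit to probe sets with 1 symbol, trended variances, robust variances, array weights, a replicate block, only the 2 groups compared, covariates for the Y-linked mean and the hybridization controls, and arrays left out.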

Additional observations from a re-analysis of the deposited data

How the results depend on the processing

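Over 1000 member values under alternatives, 920 kept their direction and side of the threshold, 60 lost the call and 1 gained it. The sign changed in 21, of which 2 were among the lost calls and 19 were of values that passed neither way. When the hybridization controls entered as a covariate, 0 genes were called in each of the 4 comparisons with water and G6pc turned to -0.16 in fructose and -0.82 with sorbate. The controls were higher on all water arrays than on any other, so this covariate and water cannot be told apart. Without water arrays 1 and 2 the counts were 2 in fructose and 4 with each preservative, where 2.39% (fructose), 6.1% (benzoate), 6.69% (nitrite) and 7.02% (sorbate) of all probe sets were higher, from fits with 1 water array that is assumed to vary like the other groups. Leaving out 1 array at a time gave counts of 5 to 6 in fructose, 6 to 7 with benzoate, 6 to 7 with nitrite and 5 to 7 with sorbate against water, and 0 to 0 in the 3 comparisons with fructose. Other calls that were lost concerned Pfkl with benzoate under quantile normalization (adjusted p = 0.0503 in limma), Pck1 with nitrite under robust variances (0.0854), Pck1 with benzoate and nitrite under array weights (0.0654 and 0.11), and Pck1 with benzoate with the Y-linked mean as a covariate (0.0725). Without benzoate arrays 2 and 3, an alternative chosen after seeing the data, Pfkl (0.172) and Pck1 (0.0831) lost the call against water.

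Of the 19, quantile normalization put Pgk1 at -0.011 in fructose, -0.037 with nitrite and -0.012 with sorbate against water, and at -0.027 with nitrite and -0.0017 with sorbate against fructose. In benzoate against fructose, Pfkl was at -0.075 under quantile normalization and -0.058 with the Y-linked mean as a covariate, and without benzoate arrays 2 and 3 Pfkl was at -0.067 and Gckr at -0.031. With 1 array left out at a time, Pgk1 ranged between -0.026 and 0.26 in fructose and between -0.0064 and 0.28 with nitrite against water, and between -0.10 and 0.14 with nitrite and -0.067 and 0.23 with sorbate against fructose. Against fructose, Pfkl ranged between -0.095 and 0.19 with benzoate and between -0.008 and 0.28 with nitrite, G6pc between -1.09 and 0.50 and Pck1 between -0.22 and 1.42 with sorbate.

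Same-numbered arrays deviated from their group means with correlations between -0.08 and 0.22, and differently numbered ones between -0.19 and 0.15. Such correlations over 3 arrays per group cannot settle whether the numbers pair the mice. A fit with the replicate block gave 6, 7, 7 and 6 called genes in fructose, benzoate, nitrite and sorbate against water and 0 in each comparison with fructose, and it changed no call. Centring each array on its median moved the median of all probe sets against water by 0.08 in fructose, 0.14 in the benzoate, 0.10 in the nitrite and 0.13 in the sorbate group. It changed the probe sets called higher and lower with benzoate to 4011 and 2949, against 3467 and 4144 as deposited, and with sorbate to 4201 and 3187, against 3703 and 4397, while no call of the 8 genes changed.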
